A study of Homo sapiens with 6 samples.

Results

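The control genes of the integrated stress response were examined in SW480, a human colon adenocarcinoma cell line, after depletion of RBM39, a splicing factor that binds RNA. They are a list of 10 genes grouped by function, of 56303 gene symbols in the count table. The rule names the genes and sets no threshold on a measured value, but it was written with earlier results of these data known. The list holds 4 kinases that phosphorylate the translation initiation factor eIF2 (EIF2AK1, EIF2AK2, EIF2AK3 and EIF2AK4), 2 subunits that direct a phosphatase to it (PPP1R15A and PPP1R15B) and 4 transcription factors that act below it (ATF4, ATF5, DDIT3 and CEBPB). Cells were infected with lentivirus carrying either a nonsilencing hairpin (shCtrl, genotype given as WT) or a hairpin against RBM39 (shRBM39, genotype given as RBM39 knockdown), and the study selected stable clonal lines with puromycin. RNA of 3 libraries per group was sequenced. Both groups were thus infected and selected, as separate lines. The labels name a single hairpin against RBM39, so an effect of RBM39 loss and an effect of that hairpin or line cannot be told apart.

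In the integrated stress response, different stresses converge on phosphorylation of the alpha subunit of eIF2. EIF2AK1 (HRI) answers to heme shortage and mitochondrial stress, EIF2AK2 (PKR) to double-stranded RNA, EIF2AK3 (PERK) to unfolded protein in the endoplasmic reticulum, and EIF2AK4 (GCN2) to uncharged tRNA. Phosphorylation lowers general translation but raises translation of mRNAs with particular upstream open reading frames, among them ATF4, ATF5, DDIT3 and PPP1R15A. ATF4 then induces genes of amino acid supply and stress, PPP1R15A returns eIF2 to its unphosphorylated form, and PPP1R15B does so in unstressed cells. The kinases and ATF4 are largely governed after transcription, so mRNA counts show only the supply of these factors.

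The targeted gene and the library depth were checked first. RBM39 was present at 435 to 448 CPM (counts scaled by library size and TMM factor) in shCtrl and at 266 to 292 CPM in shRBM39, which gave a log2 fold change of -0.67 ± 0.04 (SE) and an adjusted p of 1.24e-16 in edgeR. Total counts ran from 18042924 to 20428901 per library, and the 10 genes took between 0.112% and 0.162% of them. Of 18243 genes tested by edgeR's quasi-likelihood test, 59.1% had an adjusted p under 0.05, 29.2% higher and 29.9% lower in shRBM39. Of the called genes 49.4% were higher, against 33.9% when libraries were scaled by their totals alone, a setting that moved all genes by a median of -0.12 on the log2 scale. Of 10 colon epithelial markers, 8 had at least 10 counts in every library, while CDX1 had at most 2 counts and KRT20 as few as 3. Of the 9 that could be tested, 3 were called higher and 4 lower. On the log2 scale CDX2 was at -2.13, CDH17 at -1.34, CDH1 at -0.39 and VIL1 at -0.09. KRT8, the most abundant, was at 0.43, KRT18 at 0.24 and KRT20, with few counts, at 1.82. The summed level of the 10, scaled by library totals alone, was 12300 to 12900 CPM in shCtrl and 14200 to 14600 CPM in shRBM39. In a list of 10 leukocyte, fibroblast and endothelial markers, 5 had at most 3 counts in every library. The summed level of these 10 markers, also scaled by library totals alone, was 27.2 to 28.1 CPM in shCtrl and 31.6 to 37.3 CPM in shRBM39. Of the 5 of these that were tested, LYZ, COL1A1, PECAM1 and VWF were higher, at 1.03, 0.81, 0.79 and 1.39 on the log2 scale, and CD68, the most abundant, was not called. The part of these shifts in the results was not tested. In such bulk libraries, fewer cells that carry an mRNA and less of it per cell cannot be told apart.

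Promoter sequence is shown for 4 of the 10 genes, because the phosphatase subunits moved in opposite directions and EIF2AK2 and DDIT3 were the most raised and the most lowered of the list. The sequences are from RefSeq (GRCh38.p14), with the first listed window of each gene written 5′ to 3′ on its strand, from 250 bases before to 50 bases after the annotated start. Capitals mark matches, on either strand, to TGATGNAAN (the C/EBP-ATF response element, CARE), GAAA-any 2 bases-GAAA (an interferon-stimulated response element, ISRE) or TGACGTCA (the cyclic AMP response element, CRE), where N is any base.
EIF2AK2, chr2:37156931-37157230, minus strand: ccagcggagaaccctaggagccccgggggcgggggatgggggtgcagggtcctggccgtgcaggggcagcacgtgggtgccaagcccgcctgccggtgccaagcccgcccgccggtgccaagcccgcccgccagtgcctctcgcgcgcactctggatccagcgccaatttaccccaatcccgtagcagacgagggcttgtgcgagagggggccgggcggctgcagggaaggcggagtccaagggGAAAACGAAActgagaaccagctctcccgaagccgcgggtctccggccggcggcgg
PPP1R15A, chr19:48872171-48872470, plus strand: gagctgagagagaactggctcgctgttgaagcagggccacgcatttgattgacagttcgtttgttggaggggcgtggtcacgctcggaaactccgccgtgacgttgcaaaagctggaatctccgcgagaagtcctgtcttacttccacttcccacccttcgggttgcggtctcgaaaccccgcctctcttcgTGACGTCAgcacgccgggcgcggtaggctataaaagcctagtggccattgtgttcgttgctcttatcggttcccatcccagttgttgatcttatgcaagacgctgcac
PPP1R15B, chr1:204411768-204412067, minus strand: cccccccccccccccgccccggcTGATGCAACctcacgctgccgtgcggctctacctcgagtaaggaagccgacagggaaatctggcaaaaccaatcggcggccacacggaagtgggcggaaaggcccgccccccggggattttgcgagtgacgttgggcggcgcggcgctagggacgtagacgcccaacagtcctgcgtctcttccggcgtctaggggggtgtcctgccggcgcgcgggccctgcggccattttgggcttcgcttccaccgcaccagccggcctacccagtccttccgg
DDIT3, chr12:57520465-57520764, minus strand: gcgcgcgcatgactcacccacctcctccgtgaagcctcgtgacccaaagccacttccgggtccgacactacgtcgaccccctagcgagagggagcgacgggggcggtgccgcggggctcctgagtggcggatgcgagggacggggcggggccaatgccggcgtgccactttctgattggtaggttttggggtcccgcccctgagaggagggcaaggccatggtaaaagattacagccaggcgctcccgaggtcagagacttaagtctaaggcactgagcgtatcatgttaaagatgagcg

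In these windows EIF2AK2 held the ISRE letters from position -6 to 4 of the annotated start, PPP1R15A the CRE letters from -58 to -51 and PPP1R15B the CARE letters from -227 to -219. Of 35116 RefSeq promoter windows of the same length, 3.57% held the ISRE letters, 1.85% the CRE letters and 3.61% the CARE letters. A window was found for 9 of the 10 genes. ATF5 also held the ISRE letters, and the endoplasmic reticulum stress element (CCAAT, any 9 bases, CCACG) was in none of the 9 and in 0.0769% of all windows. A match is a description of letters and shows no binding. Only exact letters inside these windows were counted, so variants of an element and elements farther from the start were missed.

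As a whole, the genes for the transcription factors fell after RBM39 knockdown, EIF2AK2 among the kinases rose, the other kinases differed little (EIF2AK1 and EIF2AK4 changed sign under library totals alone), and the phosphatase subunits parted. Of the 10 genes, 8 had an adjusted p under 0.05, 3 higher and 5 lower, against the 59.1% of all tested genes that did. All 4 transcription factors were lower, where 29.9% of all tested genes were. The CPM ranges of shCtrl and shRBM39 were separate for 9 of the 10 genes, and for 63.3% of all tested genes. The median log2 fold change was 0.09 over the 4 kinases, -0.23 over the 2 phosphatase subunits and -0.71 over the 4 transcription factors, beside -0.01 over all tested genes. The 10 genes had between 246 and 19700 counts per library, so none lay near the limit of detection.

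**Figure D1:**
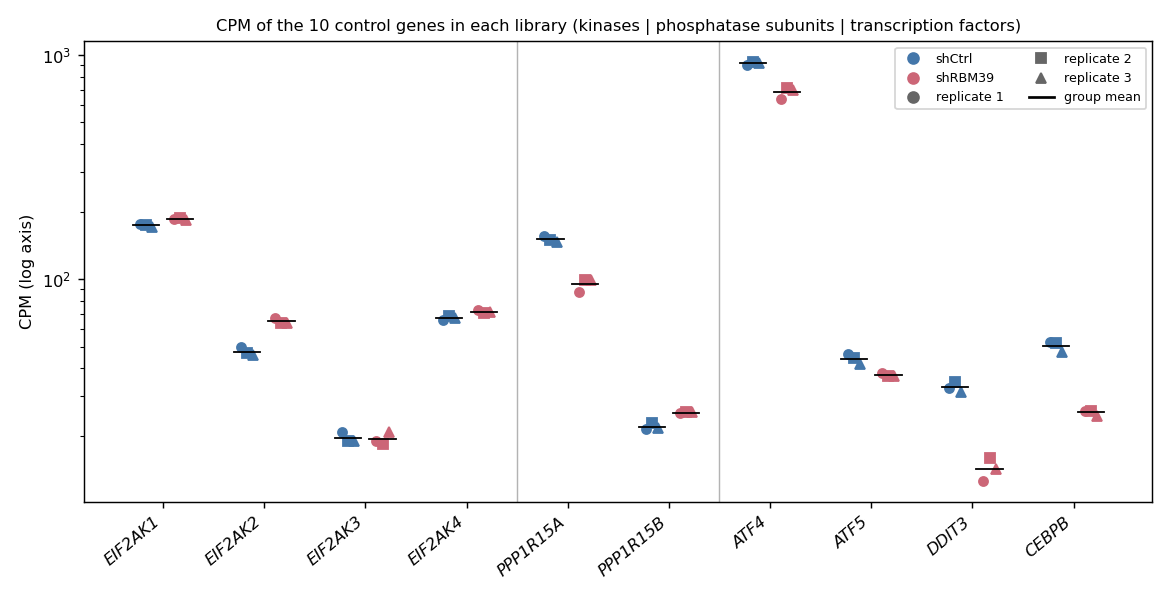
CPM on a log axis for each of the 10 genes in the 3 shCtrl (blue) and 3 shRBM39 (red) libraries, with marker shape for the replicate and a line for the group mean. The groups separate for every gene but EIF2AK3, with the 4 transcription factors and PPP1R15A lower in shRBM39 and EIF2AK2 higher.

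Among the sensors, EIF2AK2 changed most. EIF2AK2 (chromosome 2, 37099210 to 37157065, GRCh38) encodes PKR, the double-stranded RNA sensor, and is itself an interferon-induced gene. Its level was 49.7, 47.0 and 45.8 CPM in shCtrl replicates 1, 2 and 3 and 67.3, 63.4 and 63.9 CPM in shRBM39 replicates 1, 2 and 3. Every knockdown library was above every control library. The mean rose from 47.5 ± 1.99 to 64.9 ± 2.1 CPM (SD, n = 3), which gave a log2 fold change of 0.45 ± 0.05 (SE) and an adjusted p of 2.86e-10 in edgeR, and the means differed 1.37-fold. Of 9 other interferon-induced genes, 4 were higher and 2 lower (2 and 2 under library totals alone), near the 59.1% called over all tested genes, with a median log2 fold change of 0.29, and IFIT2 fell by 0.89 on the log2 scale.

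EIF2AK1 (chromosome 7, 6022244 to 6059230) encodes HRI. It had 176, 175 and 171 CPM in shCtrl and 185, 188 and 183 CPM in shRBM39. The groups were close but did not overlap. The log2 fold change was 0.09 ± 0.04 (SE) with an adjusted p of 0.0294 in edgeR, a call that ended without shCtrl replicate 3 (adjusted p 0.114) or without shRBM39 replicate 2 (adjusted p 0.0834), and the direction turned to -0.03 under library totals alone. EIF2AK4 (chromosome 15, 39934146 to 40035591) encodes GCN2, the uncharged tRNA sensor. Its values were 65.7, 68.4 and 66.8 CPM in shCtrl and 72.7, 70.6 and 71.1 CPM in shRBM39, again without overlap. Its difference, also 0.09, was not called (edgeR adjusted p 0.0619, 95% interval 0.01 to 0.18). When GC content and gene length were corrected for, it was 0.21 with an edgeR adjusted p of 3.55e-05, while under library totals alone it was -0.03.

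EIF2AK3 (chromosome 2, 88556741 to 88627576) encodes PERK, the kinase in the membrane of the endoplasmic reticulum. It was the only gene of the list whose groups overlapped. It had 20.8, 19.0 and 18.9 CPM in shCtrl and 19.0, 18.4 and 20.8 CPM in shRBM39. The log2 fold change was -0.01 with a 95% interval from -0.15 to 0.13 and an edgeR adjusted p of 0.9. No change and a small change in either direction thus cannot be told apart. Per length, EIF2AK1 made up most of the kinase mRNA. In the RPKM values (counts per kilobase of exon, scaled to the library total) of the authors, EIF2AK1 took 69.7 ± 0.235% of the summed kinase level in shCtrl and 68.2 ± 0.732% in shRBM39 (SD, n = 3). EIF2AK2 moved from 9.83 ± 0.265% to 12.3 ± 0.369% (SD, n = 3), with no overlap between the groups. EIF2AK4 and EIF2AK3 held 12.5% and 8.02% in shCtrl and 12.2% and 7.29% in shRBM39.

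The subunits that bring protein phosphatase 1 to eIF2 moved in opposite directions. PPP1R15A (chromosome 19, 48872392 to 48876057) encodes GADD34, the stress-induced subunit and itself a target of ATF4. It had 156, 149 and 147 CPM in shCtrl and 87.2, 99.3 and 99.1 CPM in shRBM39. All knockdown libraries were lower, with replicate 1 the lowest. The mean dropped from 151 ± 4.93 to 95.2 ± 6.91 CPM (SD, n = 3), which gave a log2 fold change of -0.66 ± 0.04 (SE) and an adjusted p of 6.68e-15 in edgeR. PPP1R15B (chromosome 1, 204403387 to 204411791) encodes CReP, the constitutive subunit. It had 21.5, 22.7 and 21.6 CPM in shCtrl and 25.2, 25.4 and 25.4 CPM in shRBM39. The knockdown libraries lay close together and were all higher. The log2 fold change was 0.21 ± 0.06 (SE) with an adjusted p of 0.00383 in edgeR, and the call was lost, at 0.08 with an adjusted p of 0.245, under library totals alone.

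The balance between the phosphatase subunits was compared within each library, where scaling between libraries has no part. The ratio of PPP1R15A to PPP1R15B in RPKM was 12.3, 11.1 and 11.5 in shCtrl and 5.85, 6.61 and 6.61 in shRBM39. PPP1R15A thus remained the more abundant mRNA in all 6 libraries, and its excess was 11.6 ± 0.606 in shCtrl and 6.35 ± 0.44 in shRBM39 (SD, n = 3). The groups did not overlap, and an exact permutation test of 3 libraries against 3 could not give a two-sided p below 0.1.

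ATF4 (chromosome 22, 39519695 to 39522685) encodes the central activator of the response and was the most abundant mRNA of the list. It had 900, 928 and 926 CPM in shCtrl and 637, 714 and 700 CPM in shRBM39. Every knockdown library was lower than every control library. The mean was 918 ± 16.0 CPM in shCtrl and 684 ± 41.2 CPM in shRBM39 (SD, n = 3), which gave a log2 fold change of -0.43 ± 0.04 (SE) and an adjusted p of 2.89e-11 in edgeR. This was a decrease of 25.5%. Processed pseudogenes of ATF4 share its sequence. The symbols ATF4P1 to ATF4P4 held 31, 1, 548 and 342 counts over the 6 libraries together, beside 94977 for ATF4. The handling of shared reads is not given, and their part in the ATF4 values was not tested.

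DDIT3 (chromosome 12, 57516588 to 57520517) encodes CHOP, a C/EBP family factor that ATF4 induces and that takes part in cell death under lasting stress. It had 32.7, 34.7 and 31.5 CPM in shCtrl and 12.6, 15.9 and 14.2 CPM in shRBM39. The groups were far apart. The mean fell from 33.0 ± 1.61 to 14.2 ± 1.65 CPM (SD, n = 3), which gave a log2 fold change of -1.22 ± 0.07 (SE) and an adjusted p of 1.45e-16 in edgeR. DDIT3 was 2.33-fold lower, and 2.42% of all tested genes had a lower value. CEBPB (chromosome 20, 50190734 to 50192689), which encodes C/EBP beta, a dimer partner of ATF4 and CHOP, had 52.2, 52.0 and 47.1 CPM in shCtrl and 25.9, 25.8 and 24.4 CPM in shRBM39. Again no control library came near a knockdown library. The log2 fold change of CEBPB was -0.99 ± 0.05 (SE) with an adjusted p of 3.92e-17 in edgeR, a decrease of 49.7%, and 4.25% of all tested genes had a lower value.

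ATF5 (chromosome 19, 49928702 to 49933935) encodes a factor related to ATF4 that serves the mitochondrial stress response, and it fell least of the 4. It had 46.3, 44.5 and 41.8 CPM in shCtrl and 38.1, 36.8 and 37.0 CPM in shRBM39. The groups did not overlap, although the lowest control and the highest knockdown library were close. The log2 fold change was -0.24 ± 0.05 (SE) with an adjusted p of 0.000102 in edgeR, and this value lies within the middle 50% of all tested genes (-0.32 to 0.28). DDIT3 and CEBPB fell further than ATF4 within each library. The ratio of DDIT3 to ATF4 in RPKM was 0.0676 to 0.0743 in shCtrl and 0.0392 to 0.0441 in shRBM39, and that of CEBPB to ATF4 was 0.0653 to 0.0745 and 0.0447 to 0.0523.

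**Figure D2:**
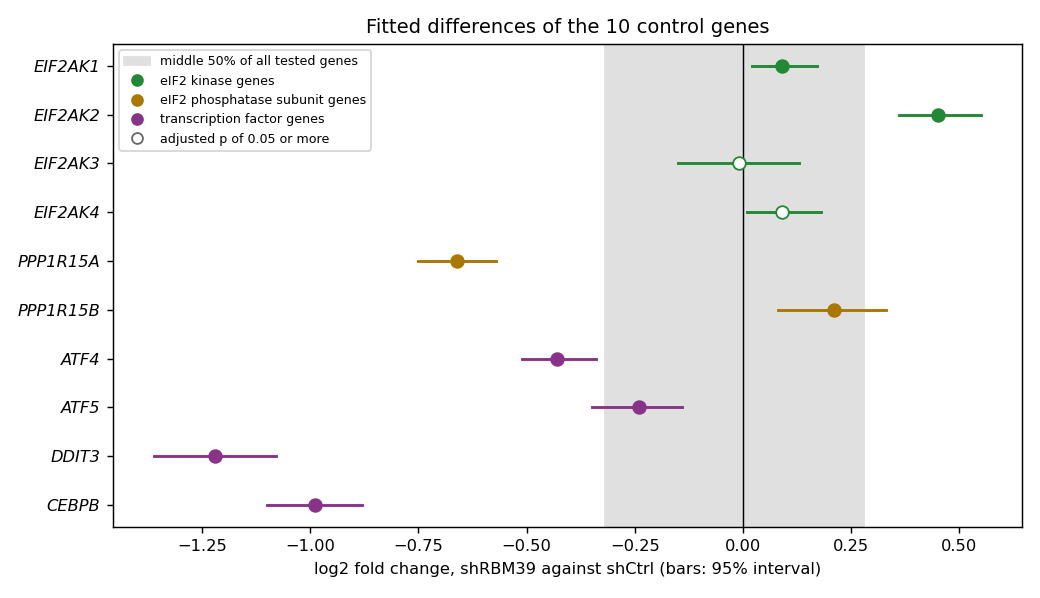
Log2 fold change of shRBM39 against shCtrl for each of the 10 genes (points) with its 95% interval (bars), coloured by role, over the range of the middle 50% of all tested genes (grey, -0.32 to 0.28). DDIT3 at -1.22 and CEBPB at -0.99 lie lowest and EIF2AK2 at 0.45 highest, and open points (EIF2AK3 and EIF2AK4) had an adjusted p of 0.05 or more.

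A stricter test separated large from small differences. When the tested bound was 0.5 on the log2 scale, PPP1R15A, DDIT3 and CEBPB were called, all lower, where 12.2% of all tested genes were called and 6.58% were called lower. EIF2AK2 and ATF4 were not called in this test. DDIT3 was the 1 gene of the 10 that was called and at least 2-fold lower, which held for 4.16% of all tested genes, and DDIT3 and CEBPB were the 2 called at -0.99 or lower, against 4.31%. At an adjusted p under 0.01, 7 of the 10 were called, against 49.5% of all tested genes. DESeq2 called the same number, 8 of the 10 genes, 3 higher and 5 lower.

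The order of the mRNA levels differed between the groups. Per length, in the RPKM of the authors, ATF4 led with 381 ± 10.0 in shCtrl (SD, n = 3), above 99.4% of tested genes, followed by PPP1R15A with 50.8, EIF2AK1 with 32.6, DDIT3 with 27.1, CEBPB with 26.9 and ATF5 with 15.6. EIF2AK4, EIF2AK2, PPP1R15B and EIF2AK3 followed with 5.84, 4.6, 4.37 and 3.75 RPKM. In this order DDIT3 and CEBPB, and EIF2AK2 and PPP1R15B, were neighbours whose 3 values overlapped. In shRBM39, ATF4 remained first with 260 ± 15.1 RPKM (SD, n = 3), and EIF2AK1 with 31.9 stood above PPP1R15A with 29.4 in all libraries of the group. CEBPB, ATF5 and DDIT3 followed with 12.4, 12.1 and 10.7 RPKM. Each overlapped its neighbour, as did EIF2AK2 with 5.77 and EIF2AK4 with 5.72. PPP1R15B with 4.63 and EIF2AK3 with 3.41 RPKM were again the lowest.

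The genes differed in features of their sequence, of which upstream start codons are linked to the function that defines the list. Upstream start codons, through which translation of several of these mRNAs is controlled, were counted in the leader of the canonical GENCODE v44 transcript. ATF4 and DDIT3 had 3 each, ATF5, PPP1R15A and PPP1R15B had 2 each, EIF2AK2 and EIF2AK3 had 1 each, and EIF2AK1, EIF2AK4 and CEBPB had 0. Of 19379 coding transcripts with a leader, 42.8% had at least 1 and 23.6% at least 2. The leaders were 81 (EIF2AK4) to 406 bases long (PPP1R15B), beside a median of 136 bases. The GC content of the merged exons was 38.6% to 45.7% in the kinases and 57.5% in PPP1R15A, against 43.4% in PPP1R15B. It was 47.8% in DDIT3, 57.6% in ATF4, 58.6% in ATF5 and 66.2% in CEBPB. With GC content and length corrected for, the genes that fell had log2 fold changes of -1.19 for DDIT3, -0.99 for CEBPB, -0.67 for PPP1R15A, -0.43 for ATF4 and -0.26 for ATF5.

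Several of the genes overlap an exon of another gene on the opposite strand, and whether the counting used strand is not given in the sources used here. MARS, which encodes methionyl-tRNA synthetase, covers 28% of the merged exons of DDIT3, and it was also lower, with a log2 fold change of -0.61. NUP62 covers 21.2% of ATF5 and differed in the other direction, by 0.34. CEBPB-AS1 covers 11.8% of CEBPB and had a log2 fold change of -1.03, AC104134.2 covers 14.4% of EIF2AK3 with -0.02, and AIMP2 covers 9.59% of EIF2AK1 with 0.29. The part of such reads in the values was not tested.

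The other genes of the pathway were compared by lists drawn up by function, also with earlier results known. Shares of called genes in these lists are read against the 59.1% of all tested genes. Of the 8 genes for subunits of eIF2 and its exchange factor eIF2B, 4 were higher, 1 lower and 3 not called, a share near that of all genes, with a median log2 fold change of 0.19. EIF2B1, EIF2B2 and EIF2S1, which encodes the phosphorylated alpha subunit, rose with log2 fold changes of 0.60, 0.47 and 0.44, and EIF2S3 fell by 0.43 on the log2 scale. Of 11 genes for regulators of the kinases, 9 were higher and 2 lower, with a median of 0.34, where 29.2% of all tested genes were higher. Under library totals alone 7 were higher and 2 lower, and in both limma fits on RPKM 6 and 2. HSPA5, which encodes the chaperone BiP that holds PERK inactive, had 422, 355 and 377 CPM in shCtrl and 748, 684 and 694 CPM in shRBM39, which gave a log2 fold change of 0.88 ± 0.05 (SE) and an adjusted p of 7.91e-18 in edgeR. ABCF1 and ATAD3A followed with 0.64 and 0.59. IMPACT, which restrains GCN2, fell by 0.53 on the log2 scale. Of 6 genes for protein phosphatase 1 catalytic subunits and partners, 4 were higher and 0 lower (4 and 2 under library totals alone), a share of calls near that of all genes, led by ACTB, PPP1CA and PPP1CC with 0.58, 0.36 and 0.35. Actin is known as a partner of PPP1R15A in the assembled phosphatase.

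Of 11 tested C/EBP and ATF family genes outside the list of 10, 6 were lower, 0 higher and 5 not called, where 29.9% of all tested genes were lower, and the median was -0.23. The share called in either direction was near the 59.1% of all tested genes. DESeq2 called 4 of them lower, as did edgeR at an adjusted p under 0.01, and library totals alone gave 9. ATF3, a stress-induced repressor, CEBPG, a dimer partner of ATF4, and ATF6, the membrane-bound sensor of the unfolded protein response, had log2 fold changes of -1.16, -0.79 and -0.39. Of 14 known targets of ATF4 and CHOP, 12 were lower and 2 not called, against the same 29.9%, with a median of -1.20. NUPR1 had 36.8, 48.2 and 41.2 CPM in shCtrl and 6.43, 9.41 and 7.38 CPM in shRBM39, a log2 fold change of -2.45. DDIT4, an inhibitor of mTORC1, and ASNS, asparagine synthetase, changed by -2.11 and -2.08. ERO1A and BCL2L11 were not called, at 0.07 and -0.03.

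**Figure D3:**
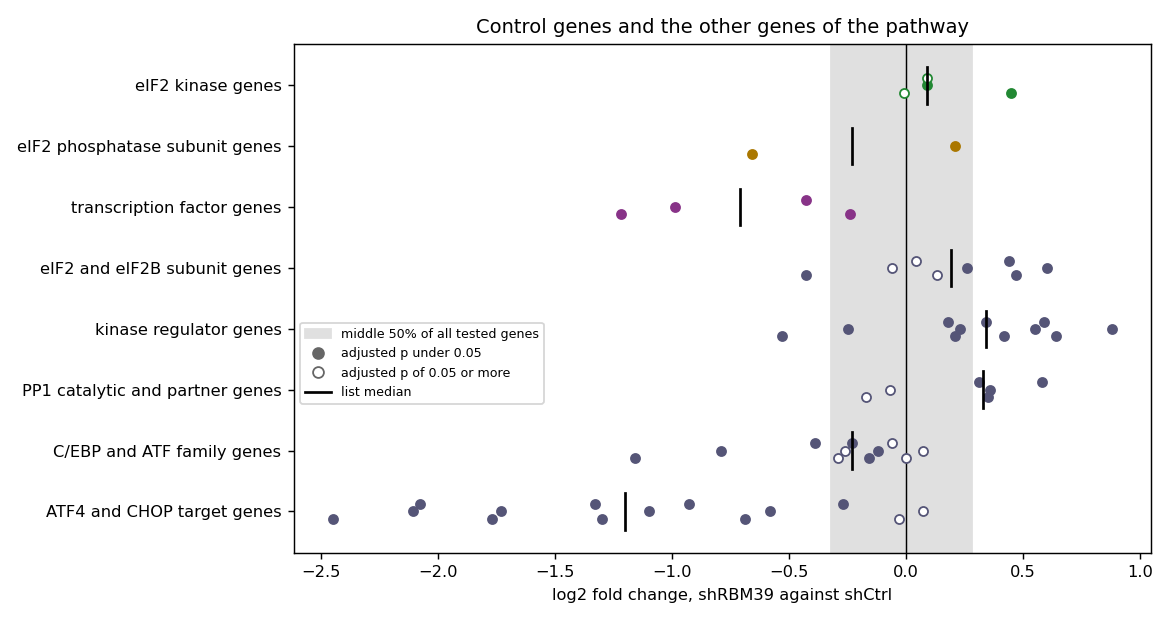
Log2 fold change of shRBM39 against shCtrl for the 3 groups of control genes (coloured) and for 5 lists of other pathway genes (grey-blue), with the list median as a line and the middle 50% of all tested genes in grey. The median of the ATF4 and CHOP targets is -1.20 and that of the transcription factors -0.71, while the kinases, of which EIF2AK1 and EIF2AK4 turn to -0.03 under library totals alone, have a median of 0.09 and their regulators one of 0.34.

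Profiles over the 6 libraries were compared with those of 12048 other genes at 5 CPM or more on average, by the root mean square distance of log2 CPM after the mean of each gene was removed. BAMBI, NFE2L2 and RP11-667F14.1 lay nearest to ATF4, at distances of 0.00981, 0.0204 and 0.0214. HIST1H2AC, SLC43A1 and KIF21B lay nearest to DDIT3, at 0.0456, 0.0464 and 0.0472. These distances are a description over 6 libraries in 2 groups. None of the 10 genes had a record in the splicing table of the authors, which lists 1582 records, all chosen by the authors for a difference between the groups. These cover 1198 gene symbols, few beside the 18243 tested genes, so the absence of 10 genes does not set them apart. Among the other pathway genes, the ATF4 and CHOP targets SLC3A2 and VLDLR had 2 records and 1 record.

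**Figure D4:**
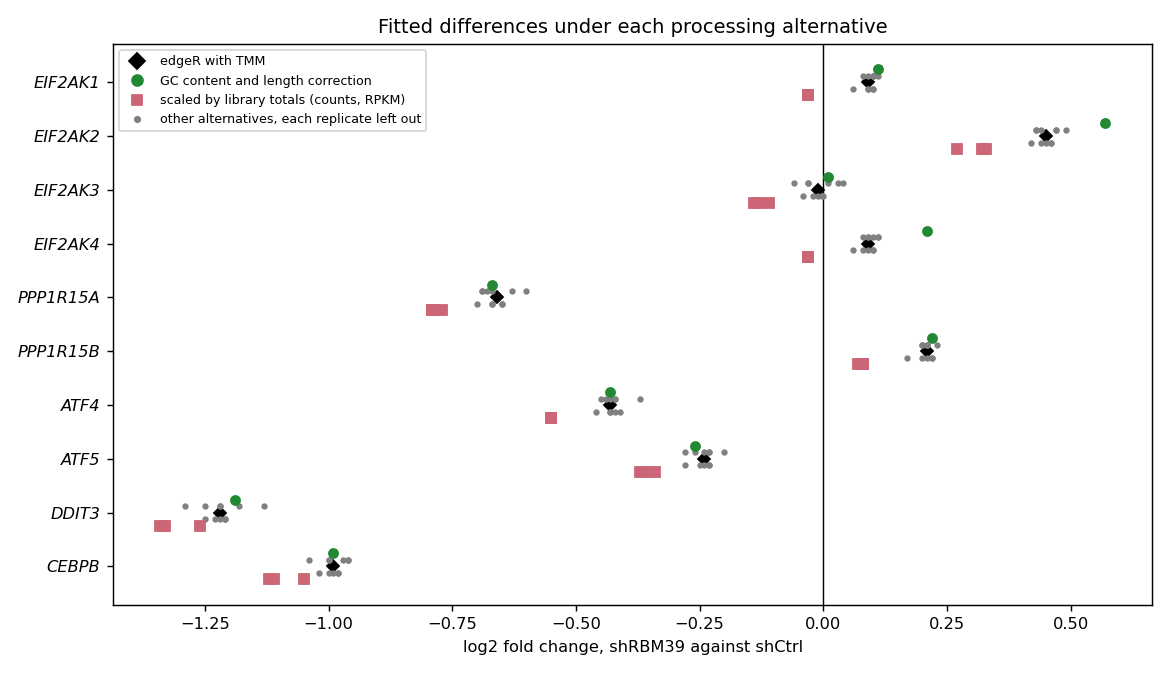
Log2 fold change of the 10 genes in edgeR with TMM scaling (diamonds), after correction for GC content and length (green), with scaling by library totals in counts or RPKM (red squares) and under the other alternatives with each replicate left out (grey dots). The 5 genes that fell stay below 0 in every fit shown, from -0.20 for ATF5 to -1.34 for DDIT3, while EIF2AK1, EIF2AK3 and EIF2AK4 lie on both sides of 0.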

How the data were processed

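mRNA of 6 SW480 libraries was sequenced from stranded libraries with unique identifiers. Per the submitters' processing notes, Trimmomatic 0.36, STAR 2.5.3a, featureCounts of Subread 1.5.1, edgeR 3.12.1 and GRCh38 were used. Strand setting, handling of shared and duplicate reads and annotation release are not given in the sources used here. The authors deposited a table of raw counts by symbol, whose NC columns were read as shCtrl, and RPKM values, which the counts gave back with relative differences of at most 5e-15. Of 191 exons listed for the 10 genes, 167 were identical to a GENCODE v44 exon. A splicing table holds the authors' own comparison and was searched for gene names only.

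Differential expression used edgeR 4.0.16 under R 4.3.3, with filterByExpr, TMM scaling and a quasi-likelihood fit on group, with Benjamini-Hochberg adjustment over 18243 genes at 0.05. Standard errors and 95% intervals came from the log2 fold change and its F statistic. Counts were simulated for this comparison with 200 of 18243 genes changed, and 18034 genes were tested. Of genes changed 1.25-fold 48% were recovered, at 1.5-fold 72% and at 2-fold 86%, and 0.0617% of unchanged genes were called. In the data 59.1% of tested genes were called, so these shares describe the simulated setting and not the real comparison. Members and lists were chosen with earlier results of these data known. Named genes were the 10 members, RBM39, up to 3 called genes of each pathway list with the largest change and a mean of at least 5 CPM, and the 3 nearest profiles of ATF4 and DDIT3. Other list genes (IFIT2, IMPACT, EIF2S3, ERO1A, BCL2L11), marker genes and overlapping genes were named after their values were seen. Alternatives were DESeq2 1.42.0, upper-quartile or no scaling, other filters on low counts, limma 3.58.1 on log2(RPKM + 1) and log2(RPKM + 0.1), each replicate left out, the replicate block, other thresholds and a GC content and length correction, for which 99.9% of tested genes had a value. The study describes replicate experiments, but the labels name no separate cultures, so p-values measure the spread between these libraries. Replicate pairs of a group differed by more than sampling noise (chi-square per degree of freedom 2.11 to 4.21).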

Additional observations from a re-analysis of the deposited data

How the results depend on the processing

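RBM39, PPP1R15A, DDIT3 and CEBPB kept direction and call in all 17 alternatives, and ATF4, ATF5 and EIF2AK2 in 16 of 17, losing the call only when tested against 0.5 on the log2 scale. That test asks for a larger difference, and under it 2232 of all genes, 3 of the 10 control genes, 0 kinases, 1 phosphatase subunit and 2 transcription factors were called, with 0 genes of eIF2 and eIF2B, 3 kinase regulators, 1 phosphatase 1 gene, 2 C/EBP and ATF genes and 1 interferon gene. Under upper-quartile scaling, library totals alone, limma on log2(RPKM + 1) or log2(RPKM + 0.1), and an adjusted p under 0.01, 1 kinase was called in place of 2. Under library totals alone and in both RPKM fits, 1 phosphatase subunit was called in place of 2, and EIF2AK1 and EIF2AK4 turned to -0.03 each. These scalings lowered all genes by a median of -0.12, -0.11 and -0.12, and they left 33.9%, 33.6% and 33.6% of calls higher. The GC content and length correction gave 3 kinases called in place of 2, with EIF2AK4 at 0.21, and 9 control genes in place of 8. EIF2AK3, never called, was 0.01 after this correction. With each replicate left out, all genes called were 10138 to 10263, control genes 7 to 8, kinases 1 to 2, EIF2AK3 -0.06 to 0.04, C/EBP and ATF genes 5 to 8, interferon genes 4 to 6 and ATF4 and CHOP targets 12 to 12. The replicate number as a block gave 10810 genes and the same number of control genes, 8. Deviations from the group means correlated by 0.00612, -0.0282 and 0.000114 between same-numbered libraries, and by -0.0403 to 0.0405 between the others. With 3 libraries per group, such values cannot show whether same-numbered libraries were prepared together. Counts of 246 or more per library stand behind each of the 10 genes, and differences of EIF2AK3 inside -0.15 to 0.13 were below what this depth and spread can show.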

Other observations

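Within the knockdown group, the lowest of the 3 libraries was not the same for all genes. Replicate 1 was the lowest shRBM39 library in 12 of 14 ATF4 and CHOP target genes, where it was the lowest in 6380 of 18243 tested genes and in 1963 of 5463 genes called lower. It was also the lowest in ATF4, PPP1R15A and DDIT3, while of the 10 control genes together 4 were lowest in replicate 1, 4 in replicate 2 and 2 in replicate 3. Without shRBM39 replicate 1 the log2 fold change of DDIT3 was -1.13, that of PPP1R15A -0.60 and that of ATF4 -0.37, each still called by edgeR. This pattern was noticed in the data and was not tested.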
